A study of Mus musculus with 12 samples.

Results

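Scleraxis (Scx) is a basic helix-loop-helix transcription factor that marks tendon progenitors and differentiating tendon cells. Its binding was mapped at E13.5 by chromatin immunoprecipitation and sequencing (ChIP-seq), with 3 anti-FLAG ChIP samples and 3 input samples. The forelimbs came from Scx Flag/Flag embryos, a knock-in line whose own Scx gene encodes a FLAG tag at the end of the protein. Each replicate pooled the forelimbs of several embryos, so the chromatin came from whole limbs and not from sorted tendon cells. RNA-seq was performed at E15.5 on Scx-GFP+ forelimb cells of 3 Scx-/- embryos, in which a lacZ cassette replaces the coding sequence, and of 3 control littermates (wildtype or Scx+/-). All RNA-seq cells carried the Scx-GFP transgene, which was used to sort them.

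The deposited peak table lists 12097 Scx peaks on the mm10 build, each 200 bp wide. Of these, 2768 peaks (22.9%, 95% Wilson interval 22.1 to 23.6%) were distal intergenic: their center lay outside every transcript of the GENCODE M21 basic set, outside the promoter and transcript end windows, and more than 50 kb from the nearest transcription start site (TSS) of a protein-coding gene. They made up 67.1% of the 4127 intergenic peaks. The rule used position only. The table gives no height, enrichment or value of a single sample, so the precision of a single peak is unknown and all peaks entered with equal weight.

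Enhancers of developmental genes often lie in long intergenic stretches, far from the promoters they act on, and reach these promoters by looping of the chromatin. Scx binds as a dimer with an E protein to E-boxes, 6-base sites of the form CANNTG, and the middle bases of the site set the preference of each dimer. Nfat proteins are calcium-regulated factors that bind TGGAAA, and many homeodomain factors of the limb bind sites with a TAAT core. The Scx core searched here was CAGATG or, as further forms, the palindromes CAGCTG and also CATATG. These forms and the Nfat core match the most enriched motifs that the study found in this same list of peaks. Their higher shares in the peaks than in the sequence beside them are thus a description and not independent support. All motifs were searched on both strands, so CATCTG counts as CAGATG.

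The sequences of the distal peaks were read from the mm10 genome. For 5 of the 6 genes that led the count of nearest peaks, the peak with the most Scx cores is shown, with the Scx cores in capitals. Sequences run 5′ to 3′ on the plus strand.
Slc4a3, chr1:75653877-75654076: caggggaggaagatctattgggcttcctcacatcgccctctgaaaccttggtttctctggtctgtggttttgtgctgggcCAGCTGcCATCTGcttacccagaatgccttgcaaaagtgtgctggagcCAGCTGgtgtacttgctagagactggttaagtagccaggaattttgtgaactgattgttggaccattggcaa
Adgrl2, chr3:150185870-150186069: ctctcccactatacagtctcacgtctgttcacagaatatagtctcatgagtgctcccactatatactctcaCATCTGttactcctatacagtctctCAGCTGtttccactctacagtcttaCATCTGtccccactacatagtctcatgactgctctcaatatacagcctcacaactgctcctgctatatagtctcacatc
Spata18, chr5:73732220-73732419: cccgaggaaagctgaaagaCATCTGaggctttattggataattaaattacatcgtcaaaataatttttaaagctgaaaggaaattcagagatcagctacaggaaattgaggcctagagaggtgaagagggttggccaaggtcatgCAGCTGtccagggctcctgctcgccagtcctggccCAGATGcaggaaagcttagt
Flrt2, chr12:94561155-94561354: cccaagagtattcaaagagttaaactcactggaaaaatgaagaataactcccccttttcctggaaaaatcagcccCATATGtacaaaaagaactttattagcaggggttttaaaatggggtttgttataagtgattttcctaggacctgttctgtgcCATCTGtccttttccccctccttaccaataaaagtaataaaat
Gas1, chr13:60347975-60348174: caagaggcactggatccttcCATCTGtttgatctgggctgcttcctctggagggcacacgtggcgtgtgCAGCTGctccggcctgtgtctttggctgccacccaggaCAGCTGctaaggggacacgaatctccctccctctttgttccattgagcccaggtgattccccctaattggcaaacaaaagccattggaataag

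The peak 107.7 kb downstream of the TSS of Slc4a3, in the stretch between Slc4a3 and Epha4, held 3 Scx cores, of which the first 2 are separated by a single base. The peak at Adgrl2 lay 1195 kb upstream of the TSS and held 3 cores and 1 Nfat core. The Flrt2 peak, 1131 kb upstream, held 2 cores and 2 Nfat cores and had the lowest G+C content of the 5, at 37.0%. The Gas1 peak, 170.7 kb upstream, held 3 cores among 5 E-boxes, and had the highest G+C content of the 5, at 55.5%.

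Of the distal peaks with the most Scx cores, 4 were nearest to Ehbp1, Ndufa10, 1700056E22Rik and Spaca1. They are shown to give the upper end of the range, again with the Scx cores in capitals.
Ehbp1, chr11:22372728-22372927: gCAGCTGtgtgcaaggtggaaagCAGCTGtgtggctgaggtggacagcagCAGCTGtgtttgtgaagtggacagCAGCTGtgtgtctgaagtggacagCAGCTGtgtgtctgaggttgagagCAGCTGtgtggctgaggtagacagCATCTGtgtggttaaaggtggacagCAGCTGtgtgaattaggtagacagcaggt
Ndufa10, chr1:92379285-92379484: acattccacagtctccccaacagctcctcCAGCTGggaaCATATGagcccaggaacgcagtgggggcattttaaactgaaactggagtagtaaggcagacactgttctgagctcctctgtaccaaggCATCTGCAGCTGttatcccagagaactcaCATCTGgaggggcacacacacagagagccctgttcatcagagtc
1700056E22Rik, chr1:183861539-183861738: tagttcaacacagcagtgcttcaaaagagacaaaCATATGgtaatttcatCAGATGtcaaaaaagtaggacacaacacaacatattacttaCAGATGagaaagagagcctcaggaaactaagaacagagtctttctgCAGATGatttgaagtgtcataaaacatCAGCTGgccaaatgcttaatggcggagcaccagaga
Spaca1, chr4:34239676-34239875: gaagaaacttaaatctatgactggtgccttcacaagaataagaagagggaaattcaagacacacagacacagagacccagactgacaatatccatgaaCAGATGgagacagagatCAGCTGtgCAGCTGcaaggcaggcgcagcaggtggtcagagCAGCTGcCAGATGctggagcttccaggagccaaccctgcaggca

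The Ehbp1 peak, 86.0 kb from the TSS, held 8 Scx cores, 7 of them CAGCTG, in a short tandem repeat. The other 3 peaks held 5 cores each. The Ndufa10 peak lies between Hdac4 and Ndufa10 and has all of the searched forms, with a CAGATG core written on its reverse strand directly beside a CAGCTG core. At the other end, 806 distal peaks (29.1%) held no Scx core.

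The Scx core was present in 1962 of the 2768 distal peaks (70.9%, 95% Wilson interval 69.2 to 72.5%). In windows of the same width placed 2000 bp to either side of these peaks it was present in 26.1% of 5493 windows (24.98 to 27.3%). Copies were concentrated at the center: among distal peaks with the core, the copy nearest to the center lay at a median of 21 bp from it, and 64.1% had a copy within 30 bp, against 46 bp and 32.1% in the windows. At least 2 cores were found in 26.9% of distal peaks and in 3.57% of windows. In the profile over 2000 bp, the count rose to 344 copies per 1000 peaks in the 40 bp right of the center.

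**Figure D1:**
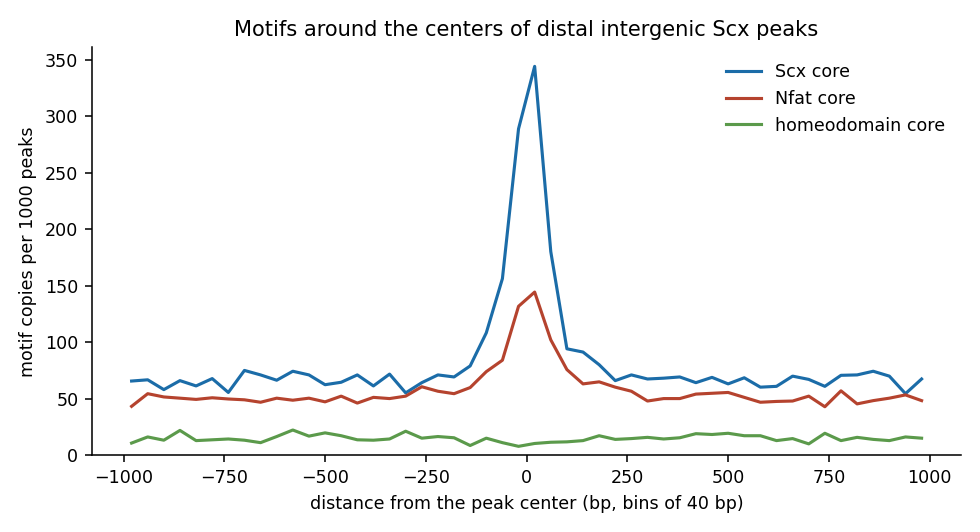
Copies of the Scx core, the Nfat core and the homeodomain core per 1000 distal intergenic peaks (y axis) in bins of 40 bp against the distance from the peak center in bp (x axis). The Scx core reached 344 and the Nfat core 144 copies per 1000 peaks beside the center, while the homeodomain core had no maximum there.

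The forms of the core did not contribute equally. CAGATG was found in 47.0% of distal peaks against 14.96% of windows, and CAGCTG in 30.2% against 6.86%. CATATG was found in 10.4% against 6.41%. Of the 2936 copies of the core in distal peaks, 55.3% were CAGATG, 34.1% were CAGCTG and 10.6% were CATATG. The bases next to CAGATG also differed from those in the windows: C preceded it in 43.1% of copies against 21.8%, T preceded it in 7.54% against 21.6%, and T followed it in 46.9% against 25.7%. Of the other E-boxes, CAGGTG was found in 17.4% of distal peaks (windows 11.6%), CAAATG in 19.1% (windows 16.9%) and CACGTG in 2.31% (windows 1.95%). Among the 806 peaks without the Scx core, 503 (62.4%) held another E-box, which left 303 distal peaks (10.9%) without any.

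The Nfat core TGGAAA was present in 41.1% of distal peaks (39.3 to 42.9%) and in 20.4% of windows (19.4 to 21.5%). It was found in 43.4% (40.0 to 46.9%) of distal peaks without the Scx core and in 40.1% (38.0 to 42.3%) of those with it. Of the other motifs, the NF1 site TTGGCA was found in 16.4% of distal peaks against 10.0% of windows, and the Tead site GGAATG in 14.2% against 11.7%. The Runx site TGTGGTT was found in 6.36% against 4.73%, and the AP-1 site TGANTCA in 6.90% against 5.92%. The Smad site CAGACA was found in 20.2% against 17.97%. Other sites were scarcer in the peaks than beside them: the homeodomain core TAATTA was found in 5.17% of distal peaks and 7.23% of windows, the Sox site ACAATG in 9.75% and 12.05%, the Forkhead site TGTTTAC in 1.73% and 3.20%, and the Gata site AGATAAG in 0.903% and 3.15%. The peaks were richer in G+C than the windows (45.4% ± 6.90, SD, n = 2768, against 42.1% ± 7.35, n = 5493). Fewer of their bases were repeat-masked (mean 9.58% against 27.3%). The part of base composition and of repeats in these shares was not tested.

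**Figure D2:**
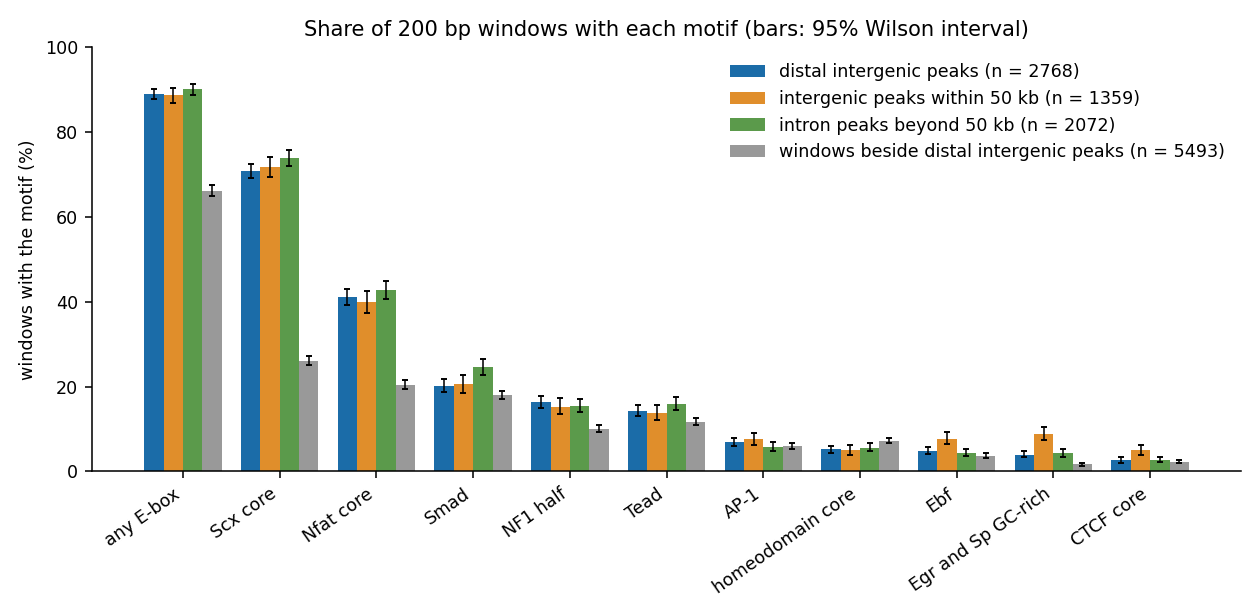
Share of 200 bp windows with each motif in percent (y axis) for distal intergenic peaks, intergenic peaks within 50 kb, intron peaks beyond 50 kb and the windows beside the distal peaks, with 95% Wilson intervals. The Scx core (70.9%, 71.9% and 74.0%) and the Nfat core (41.1%, 39.9% and 42.7%) had similar shares in the 3 classes of peaks, and lower shares in the windows (26.1% and 20.4%).

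Motif pairs in the distal peaks were more frequent at some distances, which were noticed in these data and are given as a description. The 4-base homeodomain core TAAT stood most often with 8 bases between it and a following Scx core. This arrangement had 159 copies, against a median of 19 at the other distances examined. It was found in 158 distal peaks (5.71%, 4.90 to 6.63%) and in 8 of the 5493 windows (0.146%, 0.0738 to 0.287%). The next highest count was 57, where TAAT followed the core after 6 bases. Examples from 4 of the genes with most distal peaks show the pair, with TAAT and the Scx core in capitals.
Slc4a3, chr1:75798943-75798978, minus strand: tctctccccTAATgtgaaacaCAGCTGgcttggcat
Flrt2, chr12:96286282-96286317, plus strand: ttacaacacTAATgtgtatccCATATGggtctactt
Gas1, chr13:60262980-60263015, minus strand: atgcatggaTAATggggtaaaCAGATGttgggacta
Mgmt, chr7:136631127-136631162, plus strand: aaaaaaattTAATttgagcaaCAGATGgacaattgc

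Of the 159 copies, 7 extended to the full homeodomain core TAATTA, so the enrichment of the pair stands beside a low share of TAATTA itself. In the 8 bases between both sites, G was the commonest base directly after TAAT (47.2% of copies), and T was found in 42.8 to 47.2% of copies at positions 4 to 6. The core was CAGATG, read on the strand of TAAT, in 71 copies, CATCTG in 25, CAGCTG in 40 and CATATG in 23. The share of peaks with the pair was 4.75% at 50 to 100 kb from the nearest coding TSS, 4.67% at 100 to 200 kb, 7.16% at 200 to 500 kb and 6.62% beyond 500 kb. It was 6.67% (5.64 to 7.86%) in distal peaks with no other Scx peak within 10 kb and 3.42% (2.38 to 4.90%) in those with one.

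In a further arrangement an Nfat core overlapped the Scx core, with the last 2 bases of the Scx core serving as the first 2 of the Nfat core. It was found in 176 distal peaks (6.36%, 5.51 to 7.33%) and in 22 windows (0.400%, 0.265 to 0.606%). Among its 179 copies the Scx core was CATCTG in 82, CAGATG in 34, CAGCTG in 32 and CATATG in 31. No other distance between both cores had more than 18 copies. With 2 bases shared, fewer bases must match than at other distances, so a higher count here does not by itself show a preference. In the windows this distance also had the most copies, 22, and the next highest count was 18. The shared run is in capitals in the examples.
Slc4a3, chr1:76101897-76101924, plus strand: cgtgctcaaCATCTGGAAAtccaatgga
Adgrl2, chr3:148343104-148343131, minus strand: atgttaaaaCAGCTGGAAAagcctttga
Gas1, chr13:60308082-60308109, minus strand: gctgttgtgCATCTGGAAAaggcacggt
Auts2, chr5:131775782-131775809, plus strand: tgacagcccCAGATGGAAAgtgagctgg

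Nfat cores that shared no base with a Scx core were still found in 36.8% of distal peaks against 20.1% of windows. E-boxes 7 bases apart were the commonest E-box pair, with 89 copies in 89 peaks (3.22%, windows 0.400%), but this distance stood out less, with a median of 50.5 and a next highest count of 71 at the other distances.

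**Figure D3:**
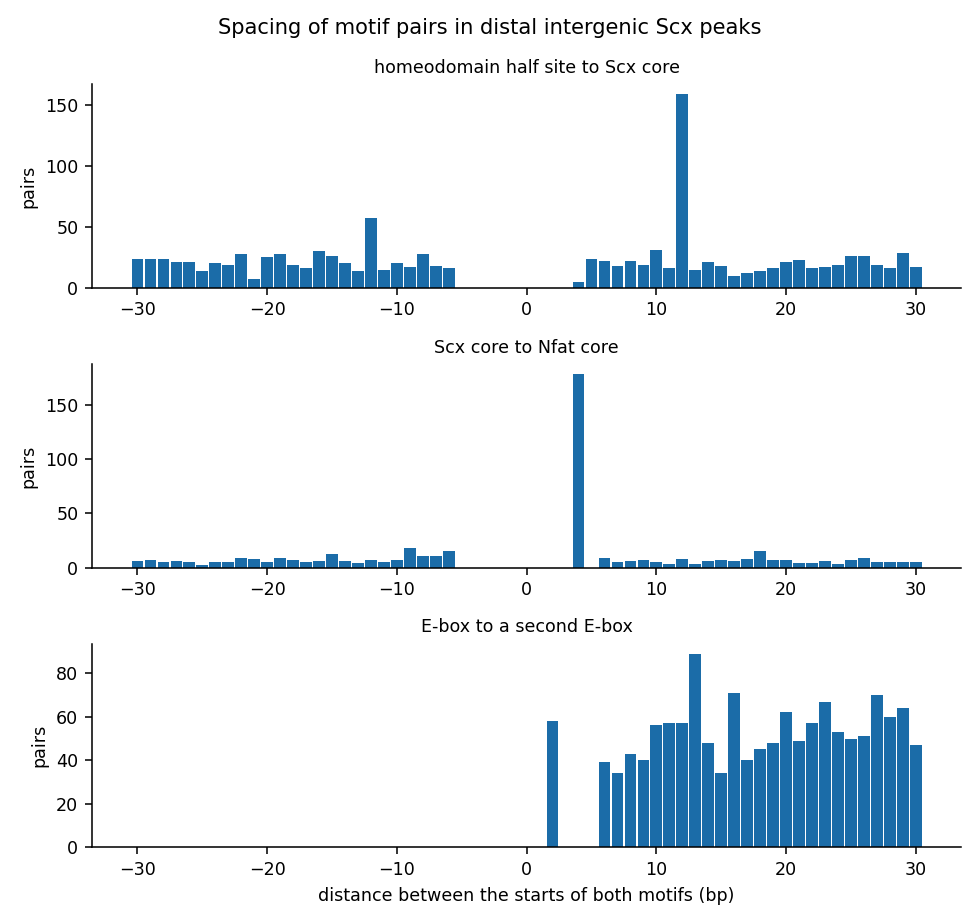
Number of motif pairs in distal intergenic peaks (y axes) against the distance between the starts of both motifs in bp (x axis; negative where the second motif lies before the first). The 4-base homeodomain core TAAT and the Scx core had 159 pairs at 12 bp, the Scx and Nfat cores 179 pairs at 4 bp, and E-boxes 89 pairs at 13 bp.

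To find where the distal peaks differed from other Scx peaks, their sequences were compared with those of 1359 intergenic peaks within 50 kb of a coding TSS and of 2072 intron peaks beyond 50 kb, by 2-sided Fisher's exact tests with Benjamini-Hochberg adjustment over 48 tests. Peaks that lie close together share their surroundings, and all peaks come from 1 pooled list, so these tests compare lists of positions and not replicate samples. The Scx core did not pass the test in either comparison. Its share in distal peaks was 1.01 points lower than in nearer intergenic peaks (95% interval of the difference -3.90 to 1.95 points, adjusted p = 0.69). It was 3.10 points lower than in introns, where it was 74.0% (-5.63 to -0.56 points, Fisher's exact test, unadjusted p = 0.018, adjusted p = 0.11). The Nfat core differed by 1.19 points from nearer intergenic peaks (39.9%, adjusted p = 0.69). The homeodomain core was at 4.93% there (adjusted p = 0.83). The spaced TAAT and Scx pair was found in 4.71% of nearer intergenic peaks and 6.08% of intron peaks (adjusted p = 0.64 and 0.71 over 8 tests of arrangements), and the overlapping Nfat and Scx cores in 7.06% and 6.90% (adjusted p = 0.64 in both). Neither arrangement was thus shown to be particular to the distal peaks.

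Against nearer intergenic peaks, 4 of the 24 motifs passed the test. The GC-rich site GGGCGG of Egr and Sp factors was lower in distal peaks (3.94% against 8.90%, adjusted p = 1.4e-08), as were the Ebf site CCCNNGGG (4.77% against 7.65%, adjusted p = 0.0037) and the CTCF core CCACNAGG (2.60% against 5.004%, adjusted p = 0.0026). CATATG was higher (10.4% against 7.73%, adjusted p = 0.046). With G+C content as a term in a logistic model none of these 4 passed, with adjusted p of 0.41, 0.59, 0.088 and 0.63 in the same order. In the central 100 bp the GC-rich site still passed (adjusted p = 9e-07), while the other 3 had an adjusted p of 0.28 each. The odds ratios of distal to nearer peaks there stood beside those of the whole peak at 0.657 and 0.604 for Ebf, 0.596 and 0.507 for CTCF, and 1.34 and 1.39 for CATATG. With G+C content in the model they were 0.857, 0.614 and 1.11. Without peaks of mostly repeat-masked bases CATATG did not pass (odds ratio 1.35, adjusted p = 0.084). CAAATG did not pass (19.1% against 15.8%, odds ratio 1.27, adjusted p = 0.052) but did with distal peaks taken from 100 kb (odds ratio 1.32, adjusted p = 0.024). Against intron peaks, the Smad site was lower in distal peaks (20.2% against 24.5%, adjusted p = 0.0037), also with G+C content in the model (adjusted p = 0.023), but not in the central 100 bp alone (adjusted p = 0.29). CAGATG was lower (47.0% against 51.1%, adjusted p = 0.046) and did not pass under any of the 5 alternatives tried (adjusted p from 0.052 to 0.39), with odds ratios of 0.842 to 0.899 beside 0.851.

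The distal peaks had a lower G+C content than the other classes. It was 45.4% ± 6.90 (SD, n = 2768) against 48.9% ± 8.32 (n = 1359) in nearer intergenic peaks, a difference of -3.54 points (SE 0.261, permutation test with 100000 resamples, 2-sided, adjusted p = 4e-05, from the smallest p these can give). Against intron peaks (46.0% ± 6.76, n = 2072) the difference was -0.69 points (SE 0.198, permutation test, adjusted p = 0.00098). Within the distal peaks the mean G+C content was 47.5% at 50 to 100 kb, 46.0% at 100 to 200 kb, 44.2% at 200 to 500 kb and 42.0% beyond 500 kb. The share with the Scx core stayed between 70.6% and 71.9% in these 4 bins, and the share with the Nfat core was 39.2%, 39.4%, 43.0% and 44.8%. A mean of 9.58% of bases in the distal peaks were repeat-masked, against 27.3% in the windows beside them, and 46.0% of distal peaks held no repeat-masked base.

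The distance of the distal peaks from the nearest coding TSS had a median of 173 kb, and 80% of distances lay between 64.5 and 527.5 kb. Beyond 500 kb lay 317 peaks (11.5%), and beyond 1000 kb lay 61 (2.20%). The 5 farthest were at 2254 kb (Pcdh20, a protocadherin), 2231 kb (Celf4, an RNA-binding protein), 2189 kb (Pik3c3, a lipid kinase), 2149 kb (Olfm4) and 2009 kb (Pcdh17, a protocadherin). Each of the 5 held at least 1 Scx core. From the nearest TSS of any annotated gene they lay 5.73, 175.2, 105.1, 6.57 and 49.6 kb away, in the same order. The 5 peaks just inside the limit lay 50031 to 50133 bp from the TSS of Fibin (2 peaks), Klf3, Ttc34 and 4930564D02Rik, and the 5 just outside 49849 to 49991 bp from that of Sema6a, Adgrl4, Dhrs7c, Cxcr4 and Dlk1. The peaks fell about evenly upstream (52.9%, 51.0 to 54.7%) and downstream of the nearest TSS. The limit counts coding genes only: with the TSS of every annotated gene, 1092 peaks were more than 50 kb away.

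In 892 Mb of distal intergenic sequence on the autosomes and X, the peaks had a density of 3.10 per Mb (exact 95% Poisson interval 2.99 to 3.22). This was close to 3.19 per Mb (3.02 to 3.37) in nearer intergenic sequence and below 4.47 per Mb (4.28 to 4.66) in introns beyond 50 kb. With the limit at 100 kb the distal density was 2.81 per Mb (2.69 to 2.93) and the nearer intergenic density 3.51 per Mb (3.37 to 3.67), so that the intervals no longer overlapped. With the limit at 25 kb the order was the opposite, with overlapping intervals: 3.165 per Mb (3.058 to 3.275) distal and 2.999 per Mb (2.797 to 3.211) nearer. Chromosomes differed: the X had 32 peaks and 0.428 per Mb (0.293 to 0.604), while the autosomes ran from 2.09 on chromosome 15 to 4.89 on chromosomes 9 and 18. No Scx peak of any class lay on the Y chromosome.

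Some distal peaks lay together, and 60 (2.17%) overlapped the Scx peak before them. Overlapping peaks were kept as separate members. Counts of peaks per gene, of peaks in runs and of motif copies may thus take the same site more than once. Another Scx peak was found within 10 kb of 29.6% of distal peaks (27.9 to 31.3%), against 32.7% (30.2 to 35.2%) of nearer intergenic and 32.8% (30.8 to 34.9%) of distant intron peaks. With runs formed by distal peaks under 10 kb apart, 1977 peaks stood alone, 271 runs held 2 peaks, 56 held 3 and 15 held 4. The largest run had 6 peaks within 16.3 kb, 124.7 to 140.8 kb from Spata18 and between Spata18 and Usp46. Next came runs of 5 between Bmp2, a bone morphogenetic protein ligand, and Hao1, with the core in all 5, and between Smim20 and Rbpj, the DNA-binding partner of Notch, with the core in 4. A further 5 lay between Ctdp1 and Nfatc1, an Nfat factor, and 4 within 10.1 kb between Slc4a3 and Epha4.

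The nearest genes of the distal peaks were spread widely, with local accumulation. The 2768 peaks had 1265 nearest genes, of which 702 were nearest to a single peak and 134 to 5 or more, and these 134 took 946 peaks. Slc4a3, an anion exchanger, was nearest to 26 peaks, all downstream of it at 106.6 to 777.8 kb, and 17 of them held the core. Together with the 8 peaks nearest to Epha4, an ephrin receptor that guides axons and patterns limb tissue, they filled the stretch between both TSS with 34 peaks in 1969 kb, the most of any stretch. Adgrl2, an adhesion G protein-coupled receptor, was nearest to 17 peaks on both sides at up to 1195 kb. Zfp608, a zinc finger protein, was nearest to 17, of which 15 held the core. Spata18, a mitochondrial protein, was nearest to 15 within 188.8 kb, and the stretch from Spata18 to Usp46 was the densest of the 15 stretches with most peaks, at 41.4 peaks per Mb.

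Gas1, a cell surface co-receptor of hedgehog ligands, was nearest to 13 peaks at 51.3 to 170.7 kb, 10 of them with the core. Tgfbr2, the type II receptor of TGF-beta, which tendon progenitors need, was nearest to 10, all upstream at 95.4 to 312.6 kb and 8 with the core. Fzd8, a Wnt receptor, was nearest to 10 at 89.0 to 567.4 kb, and 5 of these held the core. Flrt2, a transmembrane guidance protein, was nearest to 13 at up to 1879 kb, of which 6 held the core. These counts do not take account of the distal sequence nearest to each gene. It was 3.02 Mb for Flrt2, 0.812 Mb for Slc4a3 and 0.1555 Mb for Spata18. Fat4, a giant cadherin of planar polarity, and Epha4 were nearest to 9 each. The first 15 end inside a tie, since 13 genes were nearest to 9 peaks each, from which 3 were taken by the order of their symbols. The other genes of the first 15 were Auts2, a partner of Polycomb proteins (12 peaks), Triqk (11), Eno1b, an enolase (10), Mgmt, a DNA repair enzyme (10, all with the core), and 1700008P02Rik (9).

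Of the 1045 stretches between neighboring coding TSS that held a distal peak, 513 held 1 and 35 held 10 or more, and these 35 held 457 peaks (16.5%). After the stretch of Slc4a3 and Epha4 came those of Zfp608 and Gramd3 (21 peaks), Mki67 and Mgmt (19), Sel1l and Flrt2 (18 in 3843 kb) and Ttll7 and Adgrl2 (18). In the stretch of Gas1 and Dapk1, 13 peaks lay in 424.6 kb, of which 9 held the Scx core and 6 the Nfat core. Genes of these stretches outside the first 15 were named after their values were seen.

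**Figure D4:**
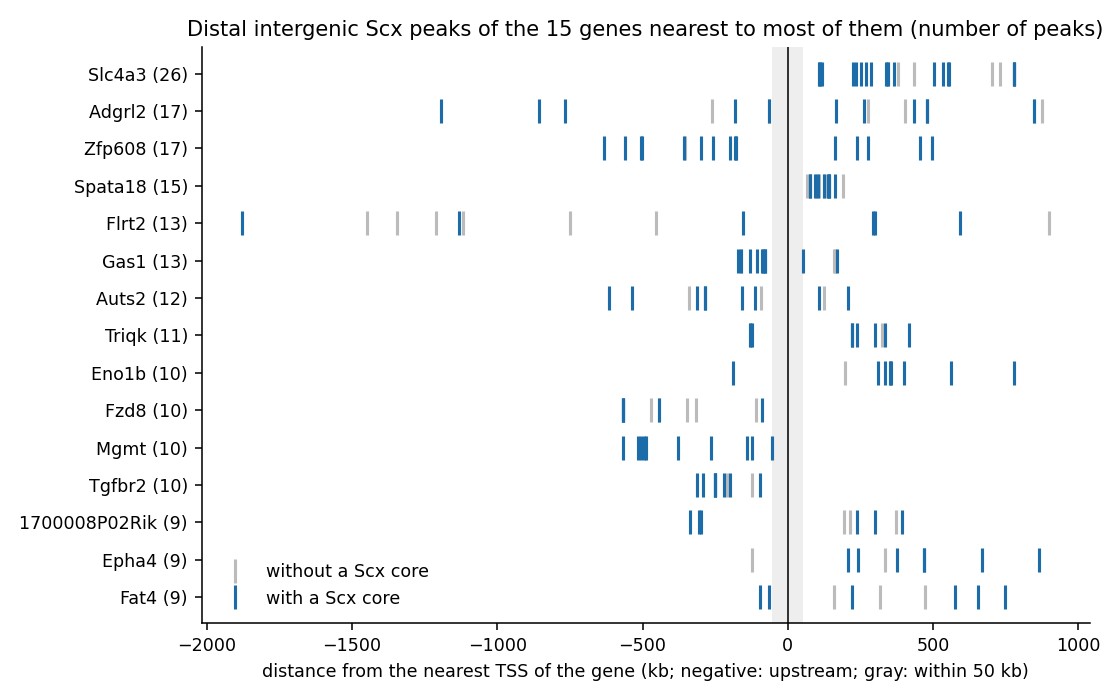
Distal intergenic Scx peaks of the first 15 genes by number of these peaks, with ties at 9 peaks taken by symbol (y axis, with the number of peaks) by distance from the nearest TSS of the gene in kb (x axis, negative upstream), in blue with and in gray without a Scx core. The 26 peaks of Slc4a3 lay on its downstream side up to 777.8 kb, while those of Spata18 stayed within 188.8 kb.

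Expression was available as the authors' mean FPKM, a level corrected for transcript length and library size, of each RNA-seq group, with no spread. Levels are therefore given without error, and they come from sorted E15.5 cells while binding was measured in whole E13.5 limbs. Of the 1265 nearest genes, 914 (72.3%, 69.7 to 74.7%) had a mean of at least 1 FPKM in control cells, against 53.8% (53.1 to 54.5%) of 21728 protein-coding genes and 68.0% of the nearest genes of intergenic peaks within 50 kb. Genes that the expression table did not list count as under 1 FPKM in these shares. Of the listed genes, 914 of 1066 nearest genes and 11687 of 14688 protein-coding genes had at least 1 FPKM. The density of distal peaks differed in the same direction. It was 3.90 per Mb (3.73 to 4.07) in distal sequence nearest to genes of at least 1 FPKM, 1.99 per Mb (1.76 to 2.23) nearest to genes under 1 FPKM, and 1.80 per Mb (1.63 to 1.99) nearest to genes that the expression table did not list. These 3 groups took 2110, 276 and 382 peaks.

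The genes with the most distal peaks ranged widely in level. In control cells the authors' mean was 65.4 FPKM for Gas1, 52.3 for Tgfbr2, 52.0 for Adgrl2, 49.7 for Flrt2, 43.6 for Fat4 and 37.0 for Epha4. It was 12.3 for Auts2, 11.4 for Zfp608, 10.9 for Fzd8 and 4.20 for Slc4a3, the gene with most peaks. Spata18, at 0.956 FPKM, was under the limit of 1, whereas Usp46, a ubiquitin protease at the other end of its stretch, was at 15.7. Eno1b was listed at 41.0 FPKM, a level that is uncertain because its sequence is very close to that of Eno1.

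The gene lists were compared by the number of genes nearest to a distal peak, beside 1265 of all 21728 protein-coding genes (5.82%), and by the density of peaks in their own distal sequence, beside 3.10 per Mb for all genes. Only 5270 protein-coding genes are nearest to any distal intergenic sequence. Among transcription factors of limb mesenchyme, 25 of 57 were nearest to a distal peak, with 83 peaks and 6.72 per Mb (exact 95% Poisson interval 5.35 to 8.33). Meis1, a homeodomain factor of the proximal limb, and Zfhx3, a zinc finger homeodomain factor, were nearest to 8 peaks each. Osr1, a zinc finger factor of limb connective tissue, and Sall1, a factor of limb and kidney development, were nearest to 6 each. Their mean levels in control cells were 4.54, 29.9, 86.7 and 6.33 FPKM.

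Of the 26 tendon differentiation genes, 9 were nearest to a distal peak, with 19 peaks and 9.62 per Mb (5.79 to 15.02). Thbs2, a matricellular thrombospondin, was nearest to 6 at 73.3 to 197.0 kb (68.5 FPKM), and Col1a2, a chain of type I collagen, to 3 at 59.3 to 88.2 kb (1249 FPKM). Of the basic helix-loop-helix and Id factors, 8 of 20 were nearest, with 8.91 per Mb (5.44 to 13.8). Tcf4, an E protein, was nearest to 5 peaks, Hes1, an effector of Notch, to 4, and Bhlhe40 and Id2, an inhibitor of E protein dimers, to 3 each. The 3 Id2 peaks lay 436.9 to 553.3 kb away and all held the core.

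Of the BMP, GDF and TGF-beta ligands and antagonists, 5 of 25 were nearest to a distal peak, with 5.51 per Mb (3.21 to 8.82). Inhba, an activin subunit, was nearest to 8 and Tgfb2, a TGF-beta ligand, to 6. Of the FGF, Wnt and other signaling ligands, 14 of 37 were nearest, with 6.68 per Mb (4.84 to 9.004). Efnb2, an ephrin ligand, and Sema3a, a semaphorin, were nearest to 8 each, Cxcl12, a chemokine, to 7 and Slit2, a guidance ligand, to 5. The Efnb2 peaks were the most remote of these, at 620.2 to 1649 kb, and 7 of the 8 held the core. Cadherins and other adhesion genes had the highest share, 21 of 27, but lay in far more distal sequence (38.4 Mb), so that their density was 2.03 per Mb (1.61 to 2.54). Epha4 and Fat4 were nearest to 9 each, Fat3, a giant cadherin, to 8 and Cdh11, a mesenchymal cadherin, to 6. Of the 12 Nfat and calcineurin genes, 4 had distal sequence and 1 was nearest to a distal peak, with 4.13 per Mb (0.105 to 23.0).

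Marker lists of the other cell types in a whole limb differed among themselves. Cartilage genes had 5 of 12 nearest to a distal peak and 6.51 per Mb (3.72 to 10.6), with 7 peaks at Sox9, the master factor of chondrocytes, 238.3 to 820.9 kb away, 4 at Sox5 and 3 at Matn1. Blood genes had 2 of 10 with 11 peaks and 15.3 per Mb (7.61 to 27.3), 7 at Ptprc, which encodes the leukocyte antigen CD45, and 4 at Runx1, a factor of blood and skeletal cells. Ptprc was at 0.253 FPKM in the sorted cells and Runx1 at 4.33. Endothelial genes had 2 of 9 and 5.51 per Mb (2.02 to 12), with 5 peaks at Cdh5, the endothelial cadherin. Skeletal muscle genes had 1 of 15 with 1 peak and 0.864 per Mb (0.0219 to 4.81). Neural and glial genes (10 genes, 1.33 Mb) and epidermal genes (7 genes, 0.333 Mb) had none, with upper limits of the exact interval at 2.77 and 11.1 per Mb. The lists are small, and several intervals overlap that of all genes. The intervals take each peak as independent although some peaks lay together, so they may be too narrow. The blood density rests on 2 genes, the only ones of that list with distal sequence. Such sequence was nearest to 9 cartilage, 6 endothelial, 6 skeletal muscle, 5 neural and glial and 4 epidermal genes.

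**Figure D5:**
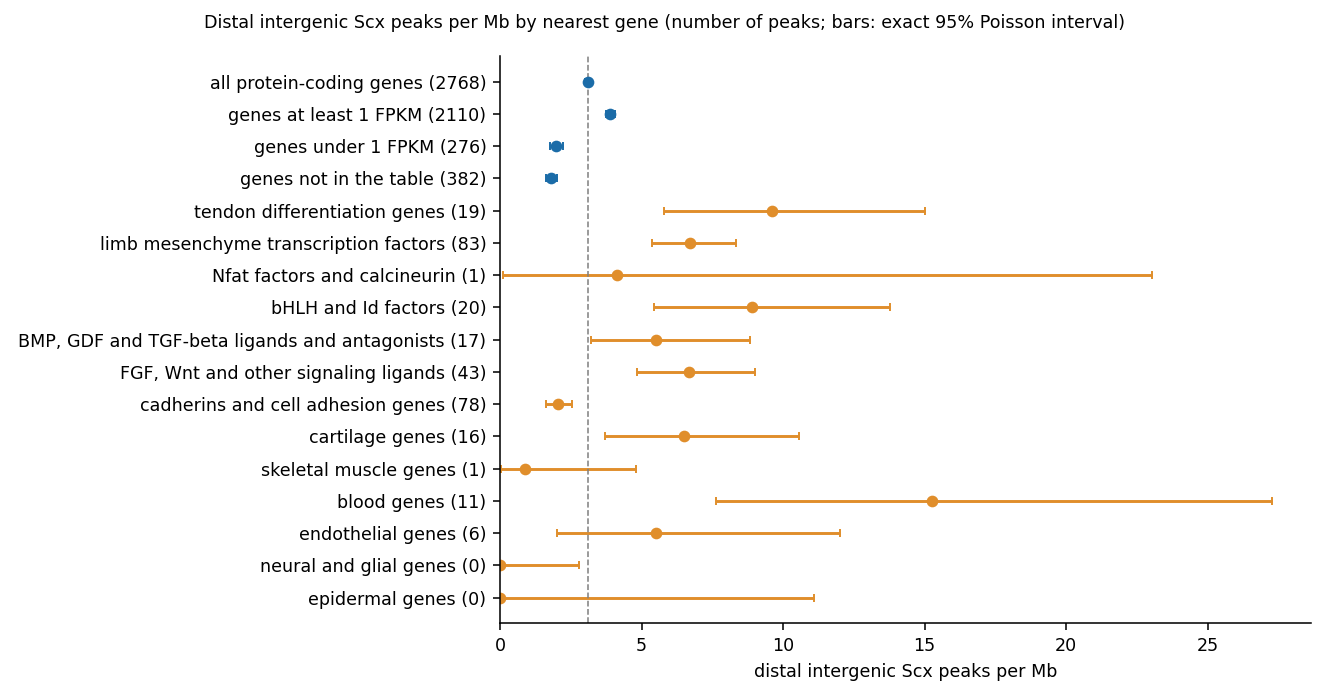
Distal intergenic Scx peaks per Mb of the distal intergenic sequence nearest to each group of genes (x axis), by the authors' mean FPKM in control cells (blue) and by gene list (orange), with exact 95% Poisson intervals and the number of peaks in parentheses. The density was 3.90 per Mb at genes of at least 1 FPKM and 1.99 at genes under 1 FPKM, and 6.72 at transcription factors of limb mesenchyme against 2.03 at cadherins and other adhesion genes.

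The final comparison set the distal peaks beside the change in expression in Scx-/- cells, from both group means only and with no test. Scx itself was listed at 88.6 FPKM in control and 41.9 in Scx-/- cells. The coding sequence is replaced in Scx-/- cells, so their level does not stand for intact Scx transcript. Where on the gene the reads lay was not tested. Xist, a noncoding RNA of female cells, was at 174.7 and 24.9, and the part of embryo sex in the ratios was not tested. Among 916 nearest genes with a mean of both groups of at least 1 FPKM, the median log2 ratio of Scx-/- to control, with 0.5 FPKM added to both, was 0.0056, and 80% of all ratios lay between -0.17 and 0.17. The median over 11685 protein-coding genes was -0.0016. A ratio of at least 1.5-fold was reached by 3 nearest genes downward and 2 upward (0.328% and 0.218%), beside a background of 0.317% and 0.223% of all these genes. These counts cover group means past 1.5-fold alone, and smaller differences were not tested.

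The 5 genes past 1.5-fold are named after their values were seen. Gsc, a homeodomain factor, was nearest to 4 distal peaks at 58.8 to 137.4 kb, of which 1 held the core, and its authors' mean was 1.40 FPKM in control and 0.622 in Scx-/- cells. Six2, a homeodomain factor of connective tissue, was nearest to 1 distal peak with the core, 165.0 kb away, and its means were 6.34 and 3.96. Spaca1, a protein of the sperm acrosome, was nearest to 1 distal peak 189.6 kb away, which is among the sequences with most cores. Its means were 1.45 and 0.736. Mgmt was nearest to 10 distal peaks and had means of 1.955 and 3.54. Lingo2, a neuronal membrane protein, was nearest to 1 and had means of 1.02 and 1.86. Scx peaks that are not distal, or are nearer to another coding gene, are not in these counts. None of the 106 genes at this level that were nearest to 5 or more distal peaks was lower by 1.5-fold, and 1, Mgmt, was higher (0.943%). The background was 0.317% and 0.223% of all genes, so 106 genes are too few to tell this set from it. For Slc4a3 the means were 4.20 and 4.17, for Tgfbr2 52.3 and 49.6, and for Gas1 65.4 and 55.1. In the same set they were 7.38 and 5.72 for Fat3, and 25.5 and 31.6 for Cxcl12.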

How the data were processed

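Scx binding was measured in 3 ChIP and 3 input samples and expression in 3 control and 3 Scx-/- samples. Per the study's methods, the authors aligned reads with STAR 2.7.4, brought ChIP libraries to equal depth, removed duplicates, called peaks per ChIP sample with HOMER 4.11, merged them and filtered them with edgeR. The deposited peak table holds positions and a score column with 0 throughout. The authors' RNA table gives the mean FPKM of each group, made from featureCounts output without Y-linked genes, and the authors' fold ratio, p-value and FDR from DESeq2, which were not used. The number of reads behind a peak or a mean is unknown here, and Wilson and Poisson intervals cover counting error over positions only.

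Coordinates are those of mm10, counted from 1. The center of each 200 bp peak was placed on GENCODE M21. Promoters ran from 1000 bp before to 100 bp after a TSS, and transcript ends from 100 bp before to 1000 bp after. Sequence came from the RefSeq copy of GRCm38 (none from chromosome 18 is printed), and windows with another peak were left out. Shares were compared by Fisher's exact test and means by permutation. Ratios used 0.5 FPKM as pseudocount and genes with a mean of at least 1 FPKM. Of 15671 expression rows, 14688 were matched to a protein-coding gene, 199 by an older symbol; 21 symbols had become dates. Peaks per gene used a grid of 100 bp.

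The members, the 24 motifs and the 13 gene lists were chosen with earlier results of these data known. Genes named were the 15 nearest to most distal peaks, up to 4 per list with at least 3, those of the 5 farthest, 5 just inside and 5 just outside peaks and of the 5 largest runs; Usp46, further genes of stretches and the genes past 1.5-fold were named after their values were seen. Scripts were tested on simulated data and used Python 3.11.15, numpy 2.4.6, pandas 2.3.3, scipy 1.17.1, statsmodels 0.14.6 and matplotlib 3.10.9.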

Additional observations from a re-analysis of the deposited data

How the results depend on the processing

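Of the 69 alternative values, 53 stayed on the same side of the test, within the interval of the reported value or, for the number of distal peaks, within 1.5 times of it, and none turned the direction of a result that passed its test. With the TSS of any annotated gene, 1092 peaks in place of 2768 were distal, and 3307 lay beyond 25 kb and 2010 beyond 100 kb. In the central 100 bp the Scx core was found in 56.9%, the Nfat core in 27.7% and the homeodomain core in 2.17% of distal peaks, since a narrower window was searched, and Nfat cores that share no base with a Scx core, an alternative chosen after seeing the data, were found in 36.8%. Over 1000 bp, the repeat-masked share was 1.59 points lower (value -1.59) than in nearer intergenic peaks and 1.08 points higher than in intron peaks, and passed the permutation test (adjusted p = 6.7e-05 and 0.00049), which it did not over the 200 bp of the peak (-0.84 and 0.61 points, adjusted p = 0.082 and 0.098). The density was 2.81 per Mb beyond 100 kb, 3.165 beyond 25 kb, 4.80 over bases outside repeats, and 3.35 on the autosomes alone, the last chosen after seeing the data. Another peak lay within 5 kb of 22.6%, within 25 kb of 44.8%, and, with overlapping peaks merged, within 10 kb of 26.6% of distal peaks. The share of nearest genes expressed was 52.7% at 5 FPKM (37.4% of all genes), 76.3% at 0.5 FPKM (57.9%) and, for genes nearest to 5 or more distal peaks, chosen after seeing the data, 78.4%.

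The RNA comparison has no spread between samples, and the nearest gene is a rule of position. No paired analysis was possible because the tables used hold no values of single samples, and for the same reason no alternative leaves out a replicate.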
